A study of Mus musculus with 32 samples.

Results

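The spleen of mice with a CD30 ligand (CD30L) transgene was compared with the spleen of non-transgenic littermates. The comparison used 8 of the 32 Affymetrix arrays of the study, taken by their labels: 4 arrays of transgenic spleen (mice 1 to 4, construct CD2-CD30L) and 4 arrays of wild type spleen (mice 1 to 4). The labels describe the transgene as constitutively and specifically overexpressed in T cells. All 8 mice were female C57BL/6 animals of 12 weeks, and 5 µg of total RNA of each spleen was labelled with biotin. The same 8 mice also gave peripheral lymph node, mesenteric lymph node and thymus, which are used below only to show where the spleen differed. The number of founder lines is not given in the sources used here, so that the effect of the transgene and of its place of insertion cannot be told apart. Equal mouse numbers of both genotypes are different animals.

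CD30, encoded by Tnfrsf8, is a receptor of the tumour necrosis factor receptor family that appears on activated T and B cells. Its ligand CD30L, encoded by Tnfsf8, is made mainly by activated T cells, and binding recruits TRAF adaptors and activates NF-kB. The spleen holds B cell follicles, where germinal centres form after antigen contact with help from follicular helper T cells, next to T cell zones. Its red pulp holds macrophages and, in the mouse, red cell precursors. In these bulk samples, fewer cells of a type and less RNA per cell cannot be told apart.

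The promoters of Rgs13 and Havcr1, the named genes that passed the test below, are shown first, as the 250 bases before the annotated start in RefSeq (build GRCm38.p6). The part that matches the NF-kB consensus is in capitals, since NF-kB lies downstream of CD30.
Rgs13, chr1:144177373-144177622, minus strand: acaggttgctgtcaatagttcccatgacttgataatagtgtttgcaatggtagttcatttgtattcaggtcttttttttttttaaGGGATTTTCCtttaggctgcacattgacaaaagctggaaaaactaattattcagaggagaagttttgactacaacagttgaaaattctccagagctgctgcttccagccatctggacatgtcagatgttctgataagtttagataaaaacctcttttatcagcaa
Havcr1, chr11:46739973-46740222, plus strand: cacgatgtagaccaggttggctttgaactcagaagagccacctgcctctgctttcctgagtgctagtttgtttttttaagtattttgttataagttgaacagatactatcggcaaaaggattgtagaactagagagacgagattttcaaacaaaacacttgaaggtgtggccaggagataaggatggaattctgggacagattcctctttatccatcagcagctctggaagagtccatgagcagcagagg
The Rgs13 window held 1 match to the NF-kB consensus on either strand, and the Havcr1 window held none. Such a match was found in 1894 of the 27025 promoters of this length, or 7.01%. A match describes the letters only.

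The promoters of Klf1, a master transcription factor of red cell precursors, of Epb42, a protein of the red cell membrane skeleton, and of Alas2, the rate-limiting enzyme of haem synthesis in red cell precursors, are shown because the genes of red cell precursors are among those described below. Capitals mark the GATA motifs AGATAA and TGATAA, read on both strands.
Klf1, chr8:84901732-84901981, plus strand: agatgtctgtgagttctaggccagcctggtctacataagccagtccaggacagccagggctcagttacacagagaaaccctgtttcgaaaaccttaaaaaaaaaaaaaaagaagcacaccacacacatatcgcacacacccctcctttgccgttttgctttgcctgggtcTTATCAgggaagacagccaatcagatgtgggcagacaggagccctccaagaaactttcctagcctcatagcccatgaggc
Epb42, chr2:121036878-121037127, minus strand: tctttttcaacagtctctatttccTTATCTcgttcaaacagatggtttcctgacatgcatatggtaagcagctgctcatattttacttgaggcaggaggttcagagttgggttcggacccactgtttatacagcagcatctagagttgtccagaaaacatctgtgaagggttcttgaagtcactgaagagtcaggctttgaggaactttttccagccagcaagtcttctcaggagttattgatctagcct
Alas2, chrX:150547167-150547416, plus strand: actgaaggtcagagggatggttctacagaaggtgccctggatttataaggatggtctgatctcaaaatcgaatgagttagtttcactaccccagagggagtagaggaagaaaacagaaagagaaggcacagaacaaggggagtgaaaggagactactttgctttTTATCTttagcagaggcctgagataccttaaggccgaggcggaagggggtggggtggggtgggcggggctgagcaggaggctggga
A GATA motif was found in 13 of the 22 erythroid genes with a promoter in the table (59.1%), against 4591 of 27025 promoters overall (17.0%). The short motif CACCC, which Klf1-type factors can bind, was found in 20 of these 22 promoters (90.9%) and in 13864 of all (51.3%). Among haem synthesis genes, GATA was found in 2 of 9 promoters (22.2%) and CACCC in 5 (55.6%), and the promoters of Urod and Aqp1 held no GATA motif. Among germinal centre genes GATA was found in 2 of 12 (16.7%) and CACCC in 9 (75%), and among follicular helper genes in 2 of 10 (20.0%) and 7 (70.0%).

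Values below are log2(intensity + 16) after quantile normalization of the 8 arrays, with intensities under 0 set to 0, so that the lowest possible value is 4 before normalization. A difference is the transgenic minus the wild type mean on this scale, given ± its standard error (SE) from limma, with a p-value adjusted by Benjamini-Hochberg over the 27022 probe sets tested. On this scale the change of dim genes is understated. The p-values measure the spread between these mice, and the number of arrays limits the precision.

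The arrays fit their tissue label. Slc4a1, the anion exchanger of red cells, had a median intensity of 6066 over the 8 spleen arrays and 7.21, 5.81 and 15.9 in peripheral node, mesenteric node and thymus. Spic, the transcription factor of red pulp macrophages, had a median of 793.7 in spleen against 195 in the peripheral node, the next highest. Ptcra, a gene of thymocytes, lay between -14.3 and 26.1 in spleen. Array pairs of the 8 correlated at r = 0.932 to 0.983, and trimmed mean intensities were 181 to 272.

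Technical and cellular measures moved within the groups. The ratio of 3' to 5' Actb signal, a measure of RNA or labelling quality, was 2.83 to 3.58 in mice 1 and 2 and 1.65 to 1.85 in mice 3 and 4, in both genotypes. Values are therefore also given within each pair of mice. Wild type mouse 4 stood apart in several gene lists: Rag1, a gene of lymphocyte precursors, had an intensity of 589 there and 3.60 to 27.7 on the other 7 arrays, and Dntt had 310 there against 2.77 to 62.4. Main results that rest on this mouse are given with and without it. Exocrine pancreas genes, from tissue next to the spleen, were highest in wild type mice 1 and 4, at 1.30 and 0.51 on average over the list relative to the mean of the 8 arrays, and lay between -0.46 and -0.15 on the other 6.

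The ligand and its receptor did not differ detectably. The Tnfsf8 values were 6.64, 6.80, 6.57 and 6.87 in transgenic mice 1 to 4 and 6.62, 6.71, 6.64 and 6.64 in wild type mice 1 to 4. The groups overlapped, with a difference of 0.07 ± 0.10 (95% interval -0.17 to 0.30, limma adjusted p = 0.893). Whether this probe set reads the transgene's transcript is not given in the sources used here, so it does not check the labels. Tnfrsf8 read 5.78, 5.46, 5.74 and 6.26 in transgenic and 5.60, 5.89, 5.89 and 5.94 in wild type spleens. These values overlapped as well, at -0.02 ± 0.17 (95% interval -0.42 to 0.38, limma adjusted p = 0.986).

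Over the whole array, 3 of 27022 probe sets passed an adjusted p of 0.05 (0.0111%), and each was higher in the transgenic spleens. Rgs13 encodes a regulator of G protein signalling that germinal centre B cells express. Its values were 8.83, 8.59, 9.20 and 9.92 in the transgenic spleens and 5.87, 6.57, 5.97 and 6.55 in the wild type spleens. The lowest transgenic array lay well above the highest wild type array, and the difference was 2.89 ± 0.30 (limma adjusted p = 0.0466). It was 2.48 between mice 1 and 2 and 3.30 between mice 3 and 4.

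Havcr1 encodes TIM-1, a phosphatidylserine receptor found on some B and T cells. Its values were 6.63, 6.81, 7.01 and 7.35 against 4.00, 5.00, 4.06 and 4.67, with a difference of 2.52 ± 0.25 (limma adjusted p = 0.0466). Its wild type mean of 4.43 lies under the filter's cut of 5.56 on the mean, so it entered the test through the transgenic arrays, where it is high. The wild type values lie at or near the lowest the scale allows, so the size depends on the added constant: it was 4.74 with a constant of 1 and 1.30 with 64. Probe set 1442544_at, to which the annotation table gives no gene symbol, read 9.20, 9.60, 9.80 and 10.17 against 7.09, 6.76, 5.59 and 6.22. Here too the groups were far apart, with a difference of 3.27 ± 0.33 (limma adjusted p = 0.0466) and the lowest values in wild type mice 3 and 4.

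The groups did not overlap for any of the 3, but the adjusted p lay close to the threshold. It was 0.125 for each of them when the pair (1, 2) or (3, 4) entered the fit as a block, which left no call (0%), 0.132 for each without the filter on dim probe sets, and 0.180 for each without wild type mouse 4, with differences of 3.00 for Rgs13, 2.61 for Havcr1 and 3.21 for 1442544_at. In 1 fit over all 32 arrays, whose spread is estimated over 4 tissues, the limma adjusted p was 6.7e-08 for Rgs13 and Havcr1 and 8.34e-09 for 1442544_at. A tissue where a gene lies at or near the floor adds arrays to this fit but almost no spread. In thymus all 8 intensities of Havcr1 were below 0, and those of Rgs13 were 3.33 to 27.3. Small p-values of this fit are therefore no independent check of the spleen result, here and for the genes below. That fit called 227 probe sets in the spleen (0.840%), 133 higher (0.492%) and 94 lower (0.348%). Without adjustment, 2312 probe sets had a p under 0.05 (8.56%), 1139 higher (4.22%) and 1173 lower (4.34%).

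**Figure D1:**
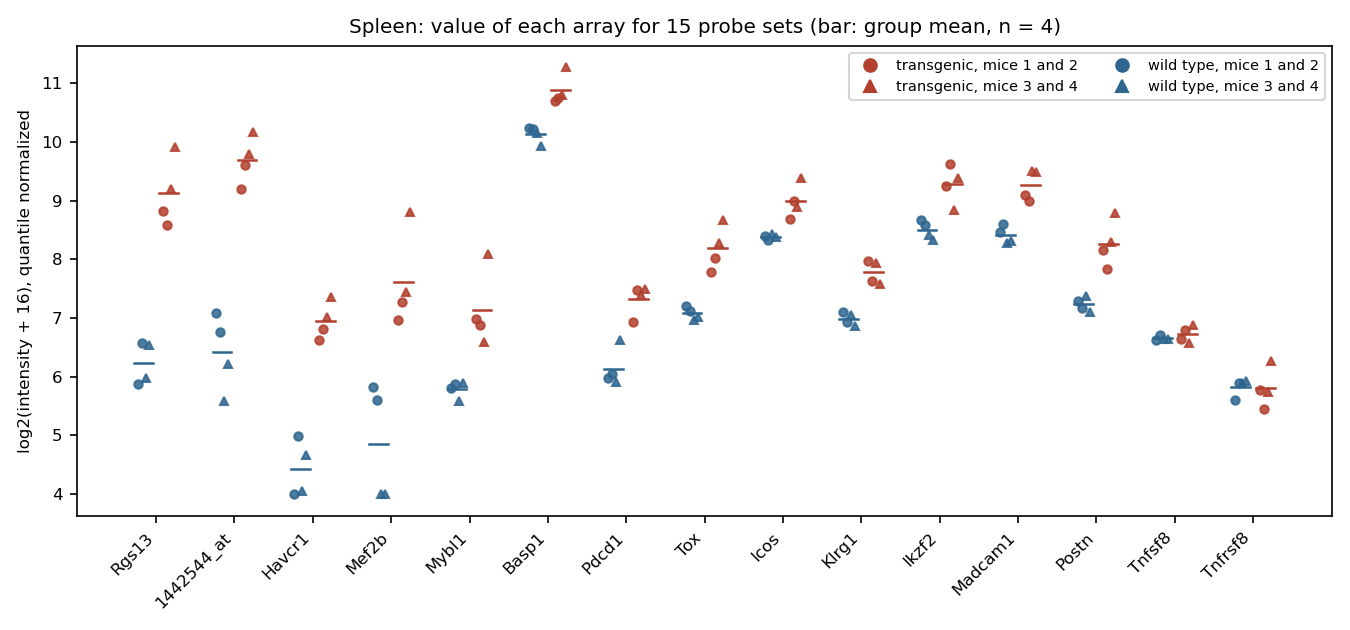
Each point is the log2(intensity + 16) value of 1 spleen array for 1 probe set, with transgenic mice in red and wild type mice in blue, circles for mice 1 and 2, triangles for mice 3 and 4, and a bar at each group mean (n = 4). The groups are separate for Rgs13, 1442544_at and Havcr1 and for the genes named after them up to Postn, while the values of Tnfsf8 and Tnfrsf8 overlap.

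The gene lists below were written with earlier results of these data known. The share of a list set beside the share over all probe sets is therefore a description and no test of the list. Germinal centre B cell genes lay mostly higher in the transgenic spleens. Of 17 listed genes 15 were on the array and 14 passed the filter on dim probe sets. In 8 of these 14 all transgenic values lay above all wild type values, against 2.80% of the probe sets tested: Rgs13, Mef2b, Basp1, Mybl1, Neil1, Gcsam, S1pr2 and Bcl6. Only Rgs13 passed the limma test on the 8 spleen arrays, and these 8 genes passed it in the fit over 32 arrays. The median difference over the 15 genes was 0.71, beside 0.0019 over the 18193 genes named on the array.

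Mef2b, a transcription factor that drives Bcl6 in germinal centre B cells, read 6.97, 7.27, 7.44 and 8.81 against 5.82, 5.60, 4.00 and 4.00, a difference of 2.77 ± 0.54 (limma adjusted p = 0.421). Wild type mice 3 and 4 lay at the floor of the scale, the gene passed the filter through the transgenic arrays alone, and the difference was 1.64 with a constant of 64. Mybl1, the transcription factor A-Myb of dividing germinal centre cells, read 6.98, 6.88, 6.60 and 8.08 against 5.81, 5.88, 5.59 and 5.89 (1.34 ± 0.29). Basp1, a membrane-bound signalling protein, read 10.69, 10.75, 10.80 and 11.28 against 10.24, 10.22, 10.15 and 9.93 (0.75 ± 0.15). Transgenic mouse 4 was the highest array for each of these 3 genes.

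The level of the whole germinal centre list, averaged over its genes relative to the mean of the 8 arrays, was 0.10, 0.24, 0.44 and 0.92 in transgenic mice 1 to 4 and -0.33, -0.39, -0.51 and -0.47 in wild type mice. The median difference was 0.32 within mice 1 and 2 and 1.00 within mice 3 and 4. Without wild type mouse 4 it was 0.63, and 8 genes again had groups apart, against 3.50% of the probe sets. Of the 15 genes 2 lay below 0, 1 of them Lmo2, a cofactor also expressed in red cell precursors (chosen after its value was seen), at -0.42 ± 0.20.

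Follicular helper T cell genes followed with a median of 0.36 over 14 genes. Of the 12 tested, 4 had groups apart (background 2.80%): Pdcd1, Tox, Icos and Sostdc1. None passed the limma test on the 8 arrays (unadjusted p under 0.05 and higher for 5, background 4.22%), and these 4 passed it in the fit over 32 arrays. Pdcd1, the inhibitory receptor PD-1, read 6.94, 7.48, 7.39 and 7.50 against 5.97, 6.04, 5.91 and 6.62 (1.19 ± 0.19, limma adjusted p = 0.321). Tox, a transcription factor of chronically stimulated and helper T cells, read 7.78, 8.01, 8.28 and 8.67 against 7.21, 7.13, 6.97 and 7.02 (1.11 ± 0.18). On its dimmer probe sets it differed by 0.90 ± 0.28 and 0.45 ± 0.27, with overlapping groups.

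Icos, the costimulatory receptor needed for follicular helper cells, differed by 0.61 ± 0.15, and its 4 wild type values spanned only 8.32 to 8.43. Sostdc1 differed by 1.73 ± 0.46 with wild type mouse 4 at the floor. Sostdc1 and Il21 passed the filter through the transgenic arrays alone. Il21, the cytokine of these cells (chosen after its values were seen), read 5.48, 6.61, 6.09 and 6.63 against 5.58, 5.49, 5.18 and 5.29 and so overlapped through transgenic mouse 1. The list median was nearly the same in both pairs of mice, 0.37 and 0.33.

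Plasma cell and secretion genes had a median of 0.29 over 27 genes, 26 of them above 0. In 10 of 27 the groups were apart with the transgenic arrays higher (background 2.80%), none passed the limma test on 8 arrays, and 11 had an unadjusted p under 0.05 (background 4.22%). Derl3, a factor of endoplasmic reticulum protein disposal, read 7.72, 8.53, 8.34 and 9.17 against 7.57, 7.37, 6.00 and 6.92 (1.48 ± 0.39, limma adjusted p = 0.528). Eaf2, a transcription elongation cofactor, differed by 1.16 ± 0.28, and Tnfrsf17, the plasma cell survival receptor BCMA, by 1.02 ± 0.26. The list median was 0.14 in mice 1 and 2 and 0.52 in mice 3 and 4.

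Immunoglobulin genes were read by probe sets at very different levels. Over the 5 named genes the median was 0.73, with Iglv1 at 0.73 ± 0.23, Igk at 1.01 ± 0.41, Ighg3 at 0.76 ± 0.46 and Igha at 0.21 ± 0.09, none past the limma threshold. The brightest Ighm probe set, for the heavy chain of IgM, read 13.30, 13.31, 13.44 and 13.35 against 13.37, 13.30, 13.39 and 13.26, with no detectable difference. Of the 8 Ighm probe sets tested, 5 dimmer ones, chosen after their values were seen, had transgenic values all above the wild type values, by 1.70 to 2.41. On the one with the largest difference the values were 9.95, 10.86, 10.44 and 11.97 against 9.43, 9.24, 7.52 and 7.39, with wild type mice 3 and 4 far below wild type mice 1 and 2. Probe sets of immunoglobulin genes can share sequence, so these values do not name a single chain. Without wild type mouse 4 the median of the 5 genes was 0.34.

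General B cell genes differed little. Of the 14 B cell lineage genes 1, the inhibitory coreceptor Cd72, had groups apart with the transgenic arrays higher (background 2.80%). The list median was 0.11, and the largest difference was 0.25. The naive T cell and egress list had a median of 0.04 over 11 genes, none with groups apart and none with an unadjusted p under 0.05.

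Pan T cell genes had a median of 0.29 over 17 genes, with 6 groups apart (background 2.80%) and 8 unadjusted p under 0.05 (background 4.22%), all higher. Cd3d, a chain of the T cell receptor complex, read 10.73, 10.71, 10.73 and 10.96 against 10.30, 10.23, 10.20 and 10.12 (0.57 ± 0.10, limma adjusted p = 0.413). Cd4, the coreceptor of helper cells, differed by 0.71 ± 0.22 and overlapped through wild type mouse 1, which read 8.30 beside 8.22 in transgenic mouse 1. Cd8a, the coreceptor of cytotoxic cells, differed by -0.06 ± 0.17 (chosen after its value was seen). None of the 17 passed the limma test on 8 arrays, and 1 passed in the fit over 32 arrays. On the values as deposited the list median was 0.09, where the median of all probe sets lay at -0.17.

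Regulatory T cell genes had a median of 0.40 over 19 genes, with groups apart in 5 of the 18 tested (background 2.80%): Klrg1, Ikzf2, Tnfrsf4, Nt5e and Izumo1r. Klrg1, an inhibitory lectin-like receptor of experienced T and natural killer cells, read 7.97, 7.63, 7.94 and 7.57 against 7.10, 6.94, 7.05 and 6.86 (0.79 ± 0.13, limma adjusted p = 0.321). Ikzf2, the transcription factor Helios, read 9.25, 9.63, 8.85 and 9.39 against 8.66, 8.59, 8.42 and 8.34 (0.77 ± 0.17). Tnfrsf4, the costimulatory receptor OX40, differed by 0.63 ± 0.15, and Nt5e, the ectoenzyme CD73, by 0.88 ± 0.23. Foxp3, the defining factor of these cells (chosen after its value was seen), differed by 0.42 ± 0.15 with overlapping groups. The differences of Klrg1 and Ikzf2 were 0.78 and 0.81 in mice 1 and 2 and 0.80 and 0.74 in mice 3 and 4. The list as a whole was less even. Of its 19 genes 15 lay above 0 and 4 below, with 11 above and 7 below in mice 1 and 2 and 17 above and 2 below in mice 3 and 4. Its median was 0.24 in mice 1 and 2 and 0.40 in mice 3 and 4. Klrg1 and Nt5e are also expressed outside regulatory T cells.

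Cytotoxic and natural killer cell genes had a median of 0.06 over 20 genes. Of the 18 tested, none had groups apart with the transgenic arrays higher (background 2.80%). In 1, the natural killer receptor gene Ncr1 (NKp46), they were apart with the transgenic arrays lower (background 2.08%), at -0.39 ± 0.13 (limma adjusted p = 0.563). Activated and memory T cell genes had a median of 0.22 over 11 genes (0.13 without wild type mouse 4). Cxcr3, a chemokine receptor of effector cells, was the only 1 with groups apart (0.52 ± 0.15, background 2.80%). Of the T helper cytokine and regulator list only 3 of 9 genes on the array passed the filter, Gata3, Ccr6 and Il17a, and none differed detectably.

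**Figure D2:**
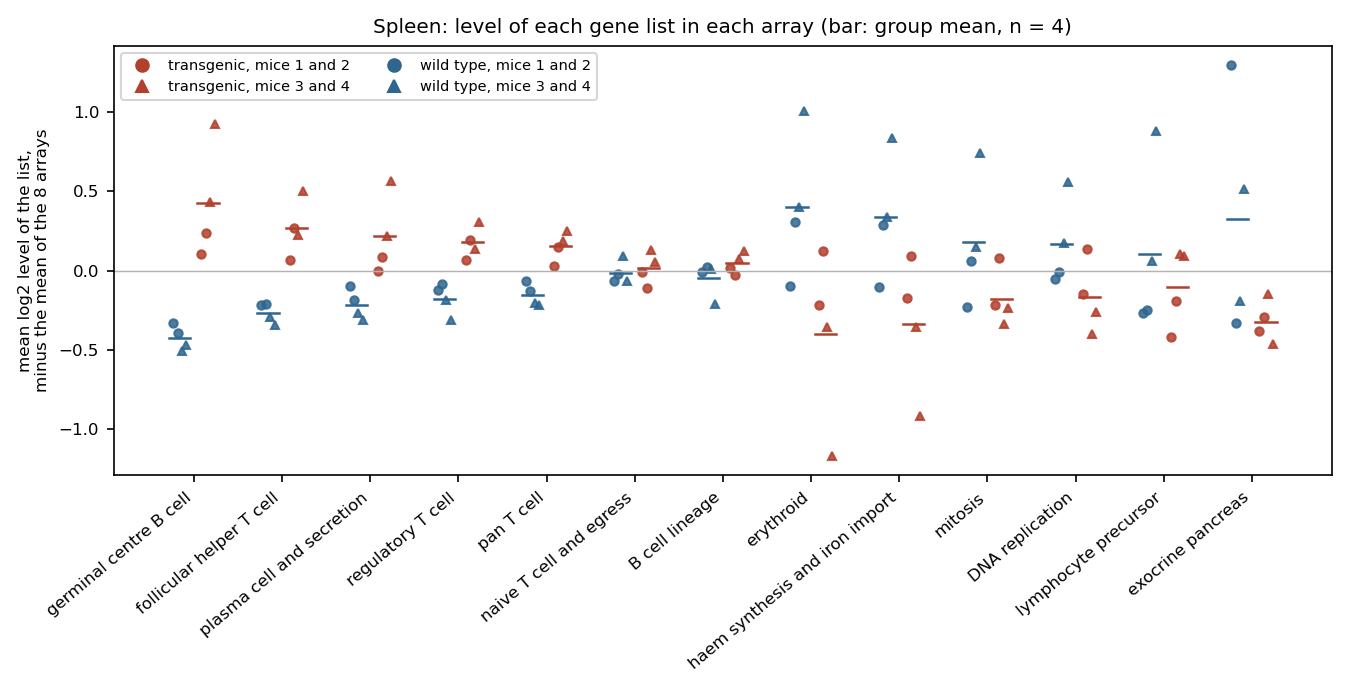
Each point is the level of a gene list in 1 spleen array, the mean log2 value over its genes minus the mean of the 8 arrays; red marks transgenic and blue wild type mice, circles mice 1 and 2, triangles mice 3 and 4, and bars group means (n = 4). The germinal centre, follicular helper, plasma, regulatory and pan T cell lists are apart between genotypes, while in the erythroid and mitosis lists wild type mouse 4 is the highest array at 1.01 and 0.75.

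Ligands of the tumour necrosis factor family other than CD30L were among the genes with groups apart. Of 11 tested costimulator genes 4 were apart with the transgenic arrays higher (background 2.80%), and the median over 15 was 0.45. Tnfsf11, the ligand RANKL, read 6.03, 6.28, 6.34 and 6.42 against 5.42, 5.79, 5.53 and 5.19 (0.79 ± 0.15, limma adjusted p = 0.421), and passed the filter through the transgenic arrays alone. Tnfsf13b, the B cell survival factor BAFF, differed by 0.63 ± 0.12 and its receptor Tnfrsf13c by 0.45 ± 0.15. Tnfsf9, the ligand of 4-1BB, read 6.59, 6.13, 6.22 and 7.29 against 5.83, 5.28, 5.61 and 5.70 (0.95 ± 0.25).

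Genes of CD30 signalling itself had a median of 0.16 over 17 genes, with no gene whose groups were apart. Of the 17, 1 had an unadjusted p under 0.05 and was higher, a share near the background of 4.22%. It was Tnfaip3, which encodes the NF-kB inhibitor A20, at 0.33 ± 0.13 (limma adjusted p = 0.563). The adaptor Traf1, itself an NF-kB target, differed by 0.28 ± 0.13, the adaptor Traf2 by 0.34 ± 0.16 and Nfkb2, the noncanonical NF-kB subunit, by 0.27 ± 0.13, each with overlapping groups. Of the 17 genes 14 lay above 0 and 3 below. The list median was 0.06 in mice 1 and 2 and 0.29 in mice 3 and 4. On the values as deposited it was -0.05, where the median of all probe sets lay at -0.17.

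Among 17 tested stromal genes 3 had groups apart with the transgenic arrays higher (background 2.80%). Madcam1, the addressin that in the spleen lines the marginal sinus, read 9.09, 9.0, 9.50 and 9.49 against 8.46, 8.60, 8.28 and 8.31 (0.86 ± 0.15, limma adjusted p = 0.379). Postn, the matrix protein periostin, read 8.16, 7.83, 8.29 and 8.78 against 7.29, 7.17, 7.37 and 7.10 (1.03 ± 0.19). Mfge8, a bridging protein of follicular dendritic cells, differed by 0.30 ± 0.12. The median over the 18 stromal genes was -0.07, with 8 genes above 0.

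Erythroid genes lay below 0 in each of the 28 genes tested, with a median of -0.85. Of them 18 had an unadjusted p under 0.05 in this direction (background 4.34%), 2 had groups apart (background 2.08%) and none passed the limma test on 8 arrays, while 4 passed in the fit over 32 arrays, Aqp1, Gfi1b, Tspo2 and Prdx2. The 2 genes apart were Klf1 and Epor. Klf1, whose promoter is shown above, read 10.39, 10.66, 9.95 and 8.98 against 10.68, 10.80, 11.03 and 11.78 (-1.08 ± 0.38, limma adjusted p = 0.563). Epor, the erythropoietin receptor, read 9.16, 9.38, 8.97 and 8.54 against 9.68, 9.44, 9.82 and 10.29 (-0.80 ± 0.23, limma adjusted p = 0.540). Aqp1, the water channel, and Car1, a carbonic anhydrase, differed by -0.87 ± 0.29 and -0.78 ± 0.26 with overlapping groups.

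Slc4a1 differed by -0.35 ± 0.17 and Hbb-b2, a beta globin, by -0.20 ± 0.13, with overlapping groups (both chosen after their values were seen). Haem synthesis and iron import genes followed the erythroid list, with all 11 tested below 0, a median of -0.62, and Ppox, Fech, Uros and Alad, enzymes of haem synthesis, at -0.97 ± 0.30, -0.82 ± 0.29, -0.91 ± 0.32 and -0.80 ± 0.29. None had groups apart, and none passed the limma test on 8 arrays.

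The spread of these genes lay mainly in mice 3 and 4. The erythroid list stood at -0.22, 0.13, -0.35 and -1.17 in transgenic mice 1 to 4 and at -0.10, 0.30, 0.40 and 1.01 in wild type mice 1 to 4. Transgenic mouse 2 lay above wild type mouse 1, so the groups overlapped. The median difference was -0.17 within mice 1 and 2 and -1.56 within mice 3 and 4, and for haem synthesis it was -0.13 and -1.20. Without wild type mouse 4 the erythroid median was -0.66 and the genes with an unadjusted p under 0.05 fell from 18 to 3 (background 2.31%). Without transgenic mouse 4 the median was -0.58.

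Cell division genes showed the same dependence. All 24 mitosis genes and all 20 DNA replication genes lay below 0, with medians of -0.41 and -0.29, and none of either list had groups apart or passed the limma test on 8 arrays. Within mice 1 and 2 the medians were 0.0003 and 0.02, with 12 genes of each list above 0, and within mice 3 and 4 they were -0.79 and -0.58. Wild type mouse 4, with the high Rag1 and Dntt values, was the highest array of both lists, at 0.75 and 0.56, and without it the medians were -0.19 and -0.18. Ube2c, a mitotic ubiquitin-conjugating enzyme, read 10.54, 10.90, 10.35 and 10.06 against 10.61, 11.02, 11.03 and 11.84 (-0.66 ± 0.27). The part of the lymphocyte precursor genes in these values was not tested.

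The difference between mice 3 and 4 and mice 1 and 2 in the effect of the transgene was tested as an interaction, a test chosen after seeing the data. No probe set passed an adjusted p of 0.05 (0%), so that these differences between pairs are not shown to be larger than the spread between mice. With the Actb ratio as a covariate, no probe set was called, and the differences were 2.89 for Rgs13, 2.52 for Havcr1 and 3.28 for 1442544_at, each with a limma adjusted p of 0.105.

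**Figure D3:**
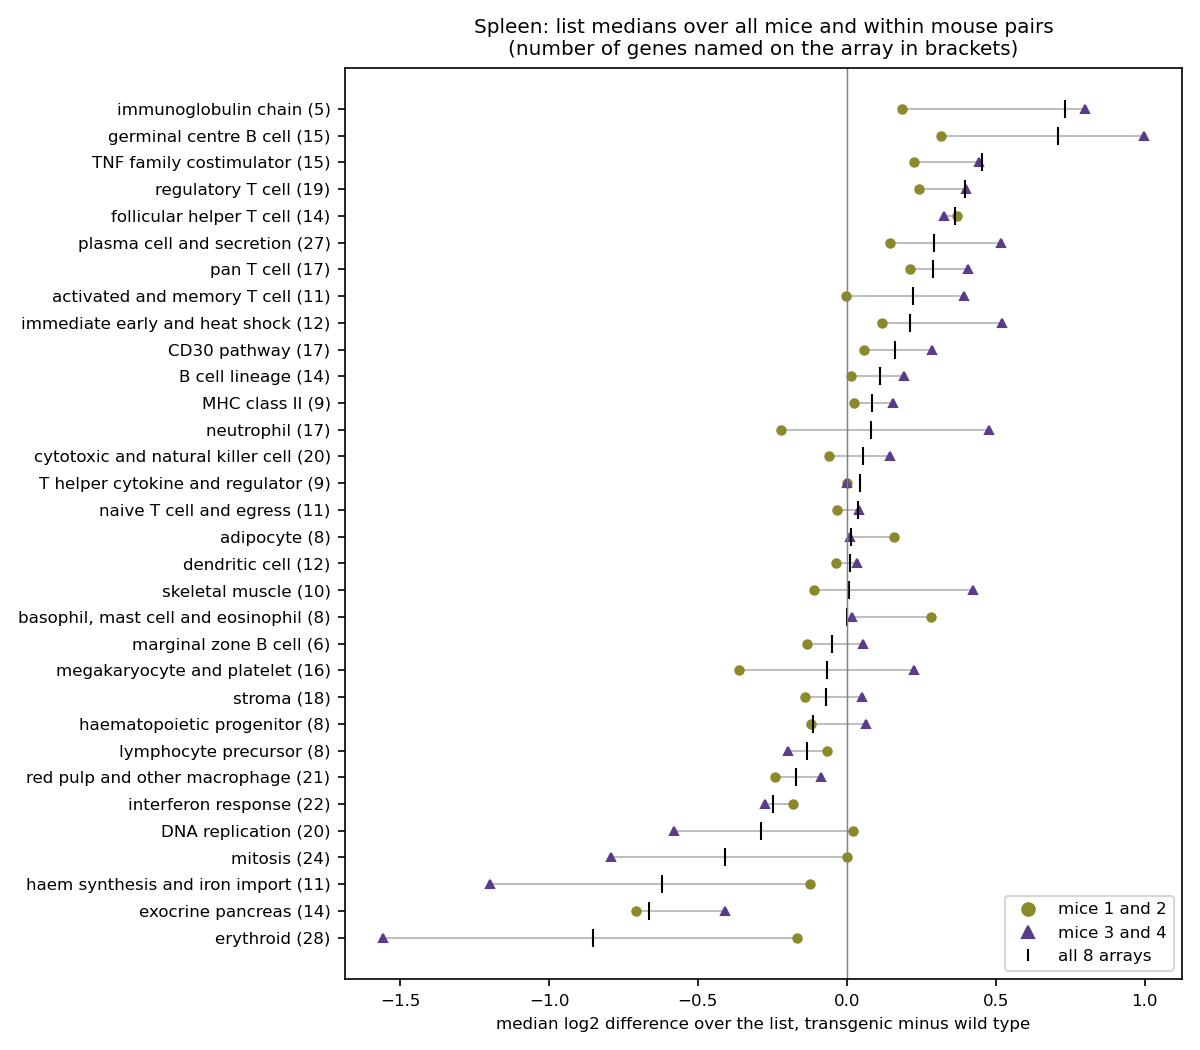
Each row is a gene list with its number of genes on the array, and the horizontal axis is the median log2 difference, transgenic minus wild type; black ticks use all 8 arrays, circles mice 1 and 2, and triangles mice 3 and 4. The erythroid median lies at -0.17 in mice 1 and 2 and at -1.56 in mice 3 and 4, whereas the follicular helper medians lie close together at 0.37 and 0.33.

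Other cell types varied without a call. Red pulp and other macrophage genes had a median of -0.17 over 21 genes, no groups apart, and lay below 0 in all 21 within mice 1 and 2 and in 15 of 21 within mice 3 and 4. Without wild type mouse 4, 5 of the 21 had groups apart with the transgenic arrays lower (background 2.90%). Hmox1, which degrades haem, differed by -0.40 ± 0.23 and the iron exporter Slc40a1 by -0.19 ± 0.14. Neutrophil genes had a median of 0.08 over 17 genes, with Itgb2l alone of the 16 tested apart (lower in the transgenic arrays, background 2.08%). Without wild type mouse 4, whose level on this list was -0.62 against 0.04 to 0.26 in the other wild type mice, the median turned to -0.12. The list had medians of -0.22 in mice 1 and 2 and 0.48 in mice 3 and 4. Interferon response genes had a median of -0.25 over 22 genes. Of the 21 tested, 4 had an unadjusted p under 0.05, all lower (background 4.34%), and no groups were apart. These 4 included Oasl2 (-0.56 ± 0.20) and Rsad2 (-0.64 ± 0.25), both antiviral effectors. Without wild type mouse 4 the median of this list was -0.24. None of its genes was then lower at an unadjusted p under 0.05 (background 2.31%), and 1 was higher (background 3.00%).

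Megakaryocyte and platelet genes had a median of -0.07 over 16 genes, and 2 of 16, Gp9 and Thbs1, were apart with the transgenic arrays lower (background 2.08%). The median was -0.36 in mice 1 and 2, 0.23 in mice 3 and 4 and -0.30 without wild type mouse 4. Gp9, a subunit of the platelet von Willebrand factor receptor, read 7.36, 7.15, 7.19 and 6.47 against 7.54, 7.68, 7.93 and 7.76 (-0.68 ± 0.19, limma adjusted p = 0.540). Dendritic cell, marginal zone B cell, haematopoietic progenitor, MHC class II and basophil lists had medians of 0.01, -0.05, -0.11, 0.08 and -0.0009. Immediate early and heat shock genes had a median of 0.21 with no groups apart. The adipocyte and skeletal muscle lists, which would show tissue taken along at dissection, had medians of 0.01 each. Only 4 of 8 adipocyte and 3 of 10 muscle genes on the array passed the filter, so these medians rest largely on dim genes. They do not show that such tissue was absent. The mean level of the muscle list, relative to the mean of the 8 arrays, was 0.02 to 0.14 in transgenic and -0.17 to -0.02 in wild type mice. Of 3 muscle genes tested the troponin Tnni2 was apart and lower (background 2.08%). Exocrine pancreas genes had a median of -0.66. Of 7 tested, Cela1 and Cela3b were apart with the transgenic arrays lower (background 2.08%). In the adipocyte list, Car3 read 8.77 in transgenic mouse 1 and 5.72 to 7.77 on the other arrays.

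Outside the lists, the genes nearest to the threshold were Lmo7, 2900009J06Rik and a second probe set of Csn2. Lmo7, a protein of cell junctions and the cytoskeleton, read 7.27, 7.29, 7.17 and 7.95 against 6.04, 6.01, 6.00 and 5.91 (1.43 ± 0.17, limma adjusted p = 0.0862). The RIKEN gene 2900009J06Rik read 5.17, 5.41, 5.02 and 5.64 against 6.41, 6.73, 6.73 and 6.82 (-1.36 ± 0.16, limma adjusted p = 0.0862). Csn2, the milk protein beta-casein, read 6.52, 6.99, 6.39 and 7.53 against 4.73, 4.48, 4.74 and 5.05 on its dimmer probe set (2.11 ± 0.25, limma adjusted p = 0.0862, chosen after its value was seen), and 5.88, 6.41, 6.40 and 6.72 against 5.33, 5.73, 5.34 and 5.33 on the other. On both probe sets the wild type mean lies under the filter's cut of 5.56, so both entered the test through the transgenic arrays.

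Among further genes with transgenic values above all wild type values, Rassf6, a scaffold of the Hippo pathway, differed by 1.83 ± 0.29 with transgenic mouse 4 far above the rest at 8.28. Gmds, an enzyme of GDP-fucose synthesis, differed by 0.73 ± 0.11, Parm1 by 0.71 ± 0.12, the magnesium transporter Slc41a2 by 0.70 ± 0.12, and Fgf3, a fibroblast growth factor, by 1.34 ± 0.23. H2-Q5, a nonclassical MHC class I gene, differed by 1.94 ± 0.47 with wild type mice 2 and 4 at the floor. Each had a limma adjusted p between 0.321 and 0.528.

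Of genes with transgenic values below all wild type values, Pak4, a cytoskeletal kinase, had the largest difference. It read 6.76, 4.25, 4.00 and 4.00 against 8.0, 7.94, 7.49 and 7.20 (-2.90 ± 0.58, limma adjusted p = 0.424), and -1.63 with a constant of 64. Atp1b2, a sodium pump subunit, read 7.96, 8.04, 4.00 and 4.5 against 8.52, 8.92, 8.41 and 8.44 (-2.45 ± 0.91), so that its low values came from transgenic mice 3 and 4 alone. Hrk, a proapoptotic BH3-only protein, read 6.40, 6.09, 6.16 and 6.20 against 6.99, 6.76, 7.07 and 7.29 (-0.82 ± 0.14). Kcnma1, the BK potassium channel, differed by -1.95 ± 0.52, Sh3tc2 by -1.95 ± 0.58, 2500002B13Rik by -1.90 ± 0.48 and Capn8, a calpain protease, by -1.58 ± 0.51.

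Smaller differences of the same direction were found for 1110008P14Rik, Cblc, Ldlrad4, Slc25a48, Calm4, Glrp1, Cdk5rap2, Rabl2, Il1rl2 and Tnk1. They lay between -1.10 ± 0.24 for Glrp1 and -0.46 ± 0.10 for Ldlrad4, with limma adjusted p from 0.421 to 0.528. Of the 156 named probe sets 17 passed the filter through 1 group only, against 1040 of 27022 tested, among them 2900009J06Rik, Fgf3, H2-Q5, Pak4, Calm4, Kcnma1, Sh3tc2, 2500002B13Rik, Capn8 and Itgb2l.

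Neighbouring genes on chromosome 11 lay higher in the transgenic spleens. Vps54, a subunit of a vesicle tethering complex, Ugp2, which makes UDP-glucose, and Mdh1, the cytosolic malate dehydrogenase, follow each other without a gene between them in the RefSeq order. Vps54 read 9.64, 9.72, 9.87 and 9.59 against 9.16, 9.06, 9.14 and 9.05 (0.61 ± 0.10, limma adjusted p = 0.321). Ugp2 read 9.96, 9.67, 10.12 and 10.02 against 9.27, 9.18, 9.56 and 9.33 (0.61 ± 0.13). Mdh1 read 11.95, 12.09, 12.10 and 12.04 against 11.91, 11.85, 11.72 and 11.63 (0.27 ± 0.10). On these brightest probe sets the groups were apart for each of the 3 genes. On dimmer probe sets Mdh1 differed by 0.68 ± 0.10 and 0.39 ± 0.09 with groups apart and by 0.21 ± 0.15 with overlap. Dimmer Vps54 probe sets differed by 0.59 ± 0.13 with groups apart and by 0.70 ± 0.27, 0.53 ± 0.25 and 0.31 ± 0.23 with overlap. The groups were apart on every Ugp2 probe set tested.

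The same genes lay higher in the other tissues of these mice. Vps54 differed by 0.55 in peripheral node, 0.43 in mesenteric node and 0.73 in thymus, Ugp2 by 0.60, 0.49 and 0.57, and Mdh1 by 0.27, 0.28 and 0.23. In the fit over 32 arrays the adjusted p of Vps54 was 0.0004 in the spleen. On either side, Peli1 (0.27 ± 0.11) and Ehbp1 (-0.14 ± 0.16) had overlapping groups in the spleen. Ugp2, Mdh1 and the flanking genes were chosen for their position after the values of Vps54 were seen.

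**Figure D4:**
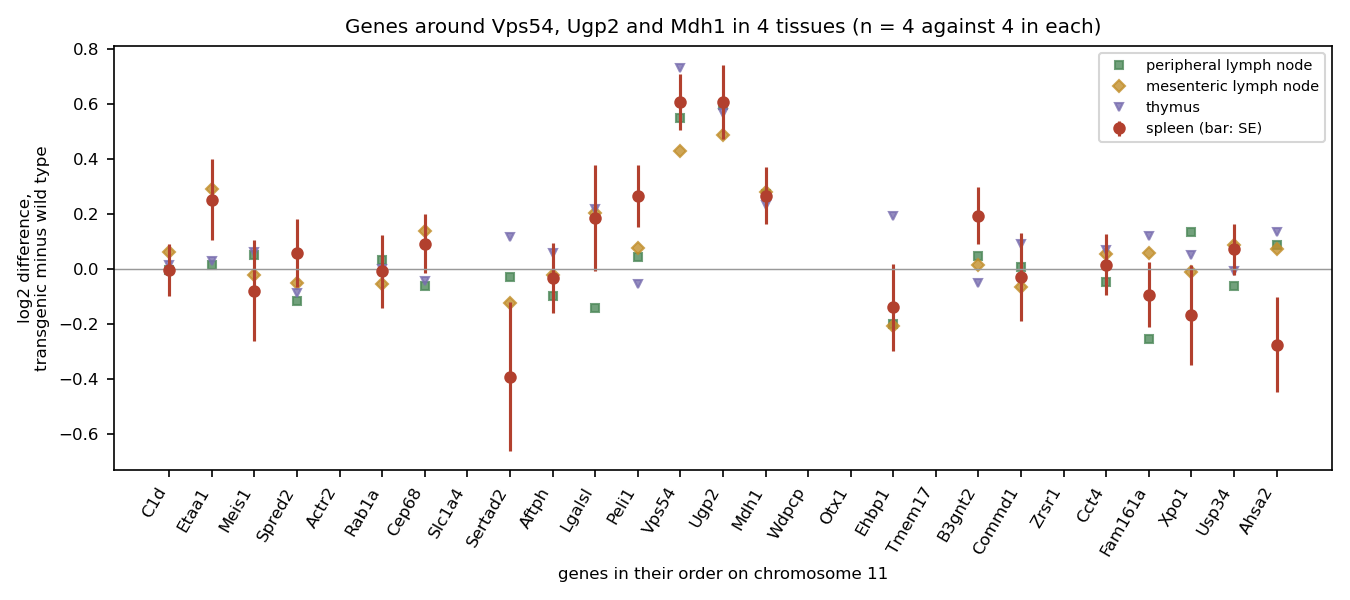
The vertical axis is the log2 difference, transgenic minus wild type (n = 4 against 4 in each tissue), for genes in their order on chromosome 11; red circles with SE bars are spleen and the other symbols are the other tissues, and genes without points were not tested or not on the array. Vps54, Ugp2 and Mdh1 lie above 0 in all 4 tissues, at 0.61, 0.61 and 0.27 in the spleen.

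Whether the effect in spleen differed from that in another tissue was tested on the difference between the tissues within each mouse. Against thymus, 2 of 29255 probe sets passed an adjusted p of 0.05 (0.00684%), Rgs13 and Tubb4a. No call was left with the mouse number as a replicate block, nor without wild type mouse 2 or wild type mouse 4. For Rgs13 the spleen minus thymus effect was 2.97 ± 0.26 (limma adjusted p = 0.0267), since it differed by -0.08 in thymus, where its median intensity was 19.0. Tubb4a, a beta tubulin of neurons, had intensities of 79.7, 88.8, 161 and 101 in transgenic spleens and below 0 in all 4 wild type spleens, between -16.6 and -6.42. Its mean lay under the filter for the spleen comparison itself, and the spleen minus thymus effect was 2.91 ± 0.20 (limma adjusted p = 0.00532). As all 4 wild type spleen values lie at the floor, they have no spread of their own. The size of this difference, its SE and its adjusted p therefore depend on the floor and the added constant.

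Against the lymph nodes no probe set passed (0%), with 2181 probe sets at an unadjusted p under 0.05 for the peripheral node (7.55%) and 1741 for the mesenteric node (6.02%). Rgs13 differed between genotypes by 2.83 in peripheral node and 1.03 in mesenteric node, and 1442544_at by 3.19 and 0.52. Havcr1 differed by 2.52 in spleen, 0.13 in peripheral node and 0.72 in mesenteric node. Its spleen minus peripheral node effect was 2.39 ± 0.30 (limma adjusted p = 0.253), and in thymus its 8 intensities were all below 0. For Pdcd1 the spleen minus peripheral node effect was 1.5 ± 0.22 (limma adjusted p = 0.484), from 1.19 in spleen and -0.31 in the node. Adam15, a membrane metalloprotease, differed by -0.31 ± 0.09 in spleen and by 0.77 in the peripheral node.

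The medians of the lists in the other tissues stand beside those of the spleen without a test. The germinal centre median was 0.71 in spleen, 0.32 in peripheral node, 0.33 in mesenteric node and 0.06 in thymus. The follicular helper median was 0.36 in spleen and -0.02, -0.02 and 0.12 in the others, and the regulatory T cell median 0.40 against -0.02, 0.04 and 0.26. The mitosis median was -0.41 in spleen and 0.94 in peripheral node, where the direction was opposite.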

How the data were processed

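The data were Affymetrix arrays of mouse spleen, 4 of CD30L transgenic and 4 of wild type mice, from 32 arrays of 4 tissues. The authors deposited 1 table of intensity values per probe set and array on a linear scale, partly below 0; how they were scaled is not given in the sources used here. Probe sets were named through the platform annotation, where 34945 of the 45037 used have 1 symbol, 932 several and 9160 none; 64 control probe sets were left out.

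Values were set to at least 0, a constant of 16 was added, and log2 values were quantile normalized within the 8 spleen arrays. Dim probe sets were dropped where their mean lay under the 40th percentile, leaving 27022 that were tested with limma 3.58.1 (R 4.3.3), Benjamini-Hochberg adjusted, at a threshold of 0.05. The filter uses the mean over all 8 arrays. The test was checked on simulated data. Each gene of a list is read by its brightest probe set. The list medians cover the genes on the array (466 of 522 entries), the counts those tested (415). Differences between tissues were tested on the per-mouse difference between both tissues.

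Named genes were Tnfsf8 and Tnfrsf8, probe sets past the threshold, the 12 smallest p in each direction, the 6 largest differences in each direction with groups apart, the 4 smallest p of each of 32 lists, and the 3 smallest p of each tissue difference; others are marked as chosen after their values were seen, except where all genes with groups apart are listed. The members and lists were chosen with earlier results of these data known. Alternatives changed the constant, normalization, filter, blocks, weights, covariate and the mice used. The interaction of genotype with the pair of mice and the counts without wild type mouse 4 were added after seeing the data.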

Additional observations from a re-analysis of the deposited data

Results flagged for a closer look

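In groups of 4 arrays, 1 mouse stood far from the other 3 in 21 of 376 groups examined, where chance alone gives about 1 in 20. The count lies near that share, so the cases below are listed as a description. No single case is shown to be more than chance. Transgenic mouse 4 stood apart for Lmo7 (7.95, others 7.17 to 7.29), Rassf6 (8.28, others 7.06 to 7.23), Cd3d (10.95, others 10.71 to 10.73), Cela3b (5.08, others 5.98 to 6.13), Tnfrsf13c (10.89, others 10.47 to 10.53), Cdk6 (9.47, others 9.25 to 9.27), Nfe2 (8.62, others 9.59 to 9.68). Other transgenic mice stood apart for Pak4 in transgenic mouse 1 (6.76, others 4.00 to 4.25), Usp18 in transgenic mouse 3 (8.44, others 8.09 to 8.15), Il18r1 in transgenic mouse 3 (8.42, others 8.62 to 8.65), Eomes in transgenic mouse 1 (7.52, others 7.83 to 7.89), Ccr3 in transgenic mouse 2 (5.11, others 5.97 to 6.14). Wild type mice stood apart for Parm1 in wild type mouse 2 (8.47, others 8.33 to 8.34), Cela1 in wild type mouse 1 (9.64, others 9.32 to 9.36), Gzmk in wild type mouse 1 (6.74, others 5.95 to 6.06), Traf2 in wild type mouse 4 (7.24, others 7.77 to 7.79), Blnk in wild type mouse 4 (10.89, others 11.08 to 11.11), Tnfrsf8 in wild type mouse 1 (5.60, others 5.89 to 5.94). Among list levels, relative to the mean of the 8 arrays, this held for the B cell lineage list in wild type mouse 4 (-0.21, others -0.01 to 0.02), the haematopoietic progenitor list in wild type mouse 4 (-0.18, others 0.08 to 0.13), the immediate early and heat shock list in transgenic mouse 2 (-0.19, others 0.16 to 0.22).

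The effect of the transgene differed between spleen and thymus for 2 probe sets, by a test on the difference within each mouse. It was larger in spleen by 2.91 for Tubb4a (3.00 in spleen, 0.08 in thymus; limma adjusted p = 0.00532, higher in 4 of 4 transgenic mice than in any wild type mouse) and by 2.97 for Rgs13 (2.89 in spleen, -0.08 in thymus; limma adjusted p = 0.0267). With the mouse number as a replicate block, or without wild type mouse 2 or 4, 0 probe sets were called. The wild type spleen values of Tubb4a all lie at the floor, so its difference and its p-value depend on that floor.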

How the results depend on the processing

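The count of 3 called probe sets in the spleen was the least stable result. It was 0 with a constant of 1, with the mouse number as a replicate block, with the pair (1, 2) or (3, 4) as a block, with mice 1 and 2 only, with mice 3 and 4 only and with the Actb ratio as a covariate. Without a filter 3 other probe sets were called, 1 higher and 2 lower, while Rgs13, Havcr1 and 1442544_at each had an adjusted p of 0.132. The count was 5 on the values as deposited and 5 with array weights, and 227 in 1 fit over all 32 arrays, with or without the mouse as a random block. Leaving out 1 mouse gave 0 to 2 calls: 0 without transgenic mouse 2, 3 or 4, and 1 without wild type mouse 1, 3 or 4. In these fits Rgs13 and 1442544_at never passed, with limma adjusted p of 0.0636 to 0.188 and 0.0531 to 0.347. Havcr1 passed without wild type mouse 2 (limma adjusted p = 0.0350), but not without wild type mouse 1, 3 or 4 (0.143, 0.112 and 0.180). Without transgenic mouse 1, 2, 3 or 4 the mean of Havcr1 lay under the filter, so it was not tested. The same held with a constant of 1 and with a filter at the 60th percentile. The 2 calls without transgenic mouse 1 and the calls left without wild type mouse 1, 3 or 4 were therefore other probe sets. Blocks and smaller groups leave fewer residual degrees of freedom; the cause was not tested further.

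Mice of equal number correlated in their deviations from the group means at 0.162, 0.292, 0.320 and 0.0229 for mice 1 to 4, so that the numbers were not taken as pairs. The best partner of both arrays 1 was an array 2, and that of both arrays 4 an array 3. For the difference between spleen and thymus, 2 probe sets were called, and 0 with the replicate block, 4 with a constant of 64, 4 without a filter and 0 to 3 without 1 mouse. Wild type mouse 2 and wild type mouse 4 gave 0 when left out. Against the peripheral node 0 were called, 1 with a constant of 1, 1 with a common median, 2 without a filter and 0 to 1 without 1 mouse. Against the mesenteric node 0 were called, and 1 with a constant of 1.

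With a constant of 1, the median was 0.63 for the follicular helper T cell list, 0.12 for skeletal muscle. With a constant of 64, the median was 0.26 for the regulatory T cell list. The values as deposited are not normalized between arrays, and the median difference of all probe sets on them lay at -0.17. The list medians and the turned signs given below for these values stand beside that baseline rather than beside 0. On the values as deposited, the median was 0.20 for the regulatory T cell list, 0.088 for pan T cell, -0.16 for naive T cell and egress, 0.028 for activated and memory T cell, -0.13 for cytotoxic and natural killer cell, -0.082 for B cell lineage, -0.26 for marginal zone B cell, -0.050 for CD30 pathway, 0.25 for TNF family costimulator, -0.31 for haematopoietic progenitor, -0.16 for dendritic cell, -0.072 for MHC class II, -0.45 for interferon response, -0.26 for stroma, 0.033 for immediate early and heat shock. With a common median in place of quantile normalization, the median was 0.14 for the T helper cytokine and regulator list, 0.086 for CD30 pathway, 0.14 for skeletal muscle. With the mean over all probe sets of a gene, the median was 0.11 for the skeletal muscle list. With mice 1 and 2 only, the median was 0.32 for the germinal centre B cell list, 0.19 for immunoglobulin chain, 0.25 for regulatory T cell, -0.0043 for activated and memory T cell, 0.015 for B cell lineage, 0.059 for CD30 pathway, 0.23 for TNF family costimulator, -0.17 for erythroid, -0.12 for haem synthesis and iron import, -0.37 for megakaryocyte and platelet, 0.00010 for mitosis, 0.023 for DNA replication, -0.22 for neutrophil, 0.29 for basophil, mast cell and eosinophil, -0.11 for skeletal muscle. With mice 3 and 4 only, the median was 1.00 for the germinal centre B cell list, 0.51 for plasma cell and secretion, 0.40 for pan T cell, 0.39 for activated and memory T cell, 0.29 for CD30 pathway, -1.55 for erythroid, -1.19 for haem synthesis and iron import, 0.23 for megakaryocyte and platelet, 0.065 for haematopoietic progenitor, -0.78 for mitosis, -0.58 for DNA replication, 0.48 for neutrophil, 0.52 for immediate early and heat shock, 0.42 for skeletal muscle. Left-out mice moved 3 list medians by more than the spread between mice, over ranges of 0.34 to 0.86 for immunoglobulin chain, 0.28 to 0.44 for regulatory T cell, 0 to 0.080 for skeletal muscle. On the values as deposited, the sign turned for genes that were not called, to -0.0037 for Cd72, -0.046 for Dapl1, -0.053 for Spib, -0.072 for H2-Ab1, -0.073 for Irf8, -0.089 for Itgax, -0.086 for Ccr7, -0.092 for Tnfsf8, -0.15 for Satb1, -0.17 for Lpl, -0.041 for Gata3. With a common median in place of quantile normalization, the sign turned for genes that were not called, to -0.016 for Satb1, -0.038 for Lpl, 0.013 for Tnfrsf8. With array weights, the sign turned for genes that were not called, to -0.081 for Ckm, 0.20 for Fabp4. With mice 1 and 2 only, the sign turned for genes that were not called, to 0.040 for Rrm1, -0.11 for Ighg3, -0.015 for Jun, -0.070 for Ctsg, -0.032 for Dapl1, -0.070 for Ltf, -0.011 for Spib, -0.036 for Irf8, 0.31 for Mcpt4, 0.29 for Fabp4. With mice 3 and 4 only, the sign turned for genes that were not called, to 0.056 for Kit, 0.0032 for Notch2, -0.011 for Satb1, -0.35 for Gata3, 0.085 for Tnfrsf8. Leaving out 1 mouse turned the sign of genes that were not called, over ranges of -0.14 to 0.0076 for Actn1, -0.46 to 0.017 for Mcpt4, -0.26 to 0.080 for Fabp4, -0.027 to 0.11 for Lpl, -0.11 to 0.19 for Gata3, -0.17 to 0.10 for Tnfrsf8.

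Of 3520 recomputed values of the 156 named probe sets, 3357 kept their direction and their side of the threshold, 45 turned sign, 40 lost a call and 78 gained one, 74 of these in the fits over 32 arrays. No called probe set turned sign. Of 512 recomputed list medians 457 moved by less than the spread between mice. A dim probe set has a value set largely by the added constant and the floor of the scale, which limits Havcr1, Mef2b, Pak4 and Tubb4a here. The causes of the changes listed were not tested.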
